A study of Homo sapiens with 8 samples.

Results

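The 47 DNA repair genes described here were given as a list and were read by repair route: 10 of homologous recombination, 9 of the Fanconi anaemia pathway, 4 of mismatch repair, 8 of nucleotide excision repair, 7 of base excision and single-strand break repair, 5 of non-homologous end joining, and 4 damage-signalling kinases. They are 47 of 17266 genes to which 1 or more assembled transcripts were assigned in any library. The rule that names them uses no measured value, but the list was drawn up with earlier results of these data known. RNA-seq was performed on 2 human hepatocellular carcinoma (HCC) lines, HepG2 and Hep3B, with 1 library per condition and 8 libraries in all. HepG2 cells were treated for 48 h with 2500 µM NaB (sodium pentaborate pentahydrate, a boron salt), with 30 µM Cur (curcumin) plus 6 µM Pip (piperine), here Cur/Pip, or with all 3 compounds at these doses (combination treatment), and were compared with untreated cells (control). For cells labelled Hep3B the dose of NaB was 1700 µM and those of Cur and Pip were the same, again beside an untreated control, so that the NaB dose differs between the lines. Both lines are labelled wild type.

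Cells mend damaged DNA by routes that differ in the lesion they act on. Base excision repair removes small damaged bases, nucleotide excision repair cuts out bulky lesions such as ultraviolet photoproducts, and mismatch repair corrects copying errors behind the replication fork. Double-strand breaks are either rejoined end to end, at any time in the cell cycle, or copied from the sister chromatid by homologous recombination, which with the Fanconi anaemia pathway for crosslinks works mainly in S and G2 phase, and many genes of these last routes are transcribed at the G1/S boundary under E2F factors.

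The promoters of the members were read from RefSeq (GRCh38.p14), 1 window per gene from 250 bases before to 50 bases after the annotated start. Windows were found for 44 of the 47, and FANCI, PRKDC and XRCC5 had none. The 4 E2F-type words TTTCGCGC, TTTGGCGC, TTTCCCGC and TTTGCCGC were searched on both strands, and they can overlap each other. Of all 27303 windows 3.33% held 1 or more of these words, and of the members 10 of 44 (22.7%) did, namely XRCC2, FANCA, FANCC, FANCD2, MSH3, MSH6, PMS2, XPC, LIG1 and XRCC6. Of 33 windows of a list of replication and G1/S genes 16 (48.5%) held one. The word TTTGAA, known as the cell cycle homology region of G2/M genes, was in 15.4% of all windows, in 4 of 44 members and in 20 of 29 windows of a list of mitosis genes. A match is a description of letters and not of a bound site. The 6 members with an E2F-type word before the start are shown as stretches of 60 bases around it, with the word in capitals (in FANCA and FANCC it reads on the opposite strand, and FANCC holds 2 of them, of which the first is shown). They are followed by the last 60 bases before the start of RAD54L, DDB2 and UNG, 3 of the members that were lower by both measures below, in whose windows no such word was found. They lie at chr16:89816786-89816845 (FANCA, minus strand), chr9:95317848-95317907 (FANCC, minus), chr5:80654519-80654578 (MSH3, plus, with 2 overlapping words), chr7:6009116-6009175 (PMS2, minus), chr3:14178792-14178851 (XPC, minus), chr19:48170425-48170484 (LIG1, minus), chr1:46247628-46247687 (RAD54L, plus), chr11:47214394-47214453 (DDB2, plus) and chr12:109097537-109097596 (UNG, plus).
FANCA: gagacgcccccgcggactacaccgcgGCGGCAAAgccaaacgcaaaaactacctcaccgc
FANCC: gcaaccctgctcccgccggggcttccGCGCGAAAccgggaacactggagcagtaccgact
MSH3: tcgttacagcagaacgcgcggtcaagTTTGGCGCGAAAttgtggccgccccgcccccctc
PMS2: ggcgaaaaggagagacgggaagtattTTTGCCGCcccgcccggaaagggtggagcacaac
XPC: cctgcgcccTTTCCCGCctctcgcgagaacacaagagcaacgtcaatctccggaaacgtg
LIG1: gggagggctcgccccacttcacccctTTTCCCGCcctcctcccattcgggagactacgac
RAD54L: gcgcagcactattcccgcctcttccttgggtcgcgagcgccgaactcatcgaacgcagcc
DDB2: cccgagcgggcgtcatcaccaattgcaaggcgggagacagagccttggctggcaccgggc
UNG: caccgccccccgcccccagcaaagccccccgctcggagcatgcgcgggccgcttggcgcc

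The level of a gene is the sum of the FPKM (fragments per kilobase of transcript, scaled to library size) of its assembled transcripts, and the libraries hold an estimated 25.6 to 35.7 M fragments. A larger share of transcripts had a single exon in each treated library than in its control. Such transcripts made up 22.7, 34.1 and 32.2% in HepG2 after NaB, Cur/Pip and the combination, against 16.4% in the control, and 19.1, 22.4 and 28.4% in the Hep3B-labelled libraries, against 14.7%. The part of this in the results below was not tested. Therefore a second level was computed for each gene, here called depth, in which the coverage by any transcript of its strand is averaged over the annotated exons of its main transcript and put on the FPKM scale. Of 20 hepatocyte markers 19, 20 and 19 had an FPKM of at least 1 in treated HepG2 libraries and 16 did in the control, while 0, 1 and 0 did in treated Hep3B-labelled libraries and 2 did in their control. Of these markers ALB, AFP, APOA2 and APOC3 were listed at 0 in the HepG2 control, while ALB was at 2989 to 7518 FPKM in treated HepG2 libraries. Those 4 libraries are therefore called Hep3B-labelled throughout. The summed FPKM of 8 fibroblast markers was 86.0, 61.1 and 38.9 in the treated Hep3B-labelled libraries, against 305 in their control, and that of 7 leukocyte markers was 528, 154 and 262 in treated HepG2 libraries, against 1403 in the control. DCN and LUM made up most of the first sum and LYZ most of the second, while PTPRC, COL1A2, PDGFRA and THY1 were at 0 in each library, and 10 endothelial markers summed to 5.73 to 23.5 FPKM. The part of these lists in the repair gene results was not tested.

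All 47 members had a transcript in 1 or more libraries and 36 had one in each of the 8 libraries. The other 11 members, PALB2, RAD54L, FANCA, FANCB, FANCG, FANCI, PMS1, PMS2, XPA, XRCC1 and XRCC4, were listed at 0 in 25 of the 376 pairs of a member and a library. A listing at 0 is not evidence of a silent gene. In 23 of these 25 pairs no transcript of the gene's strand was assembled anywhere between its ends, and in the HepG2 control the coverage of FANCG stood at a depth of 16.3 in a transcript that runs on from a neighbouring gene, to which it was assigned. A transcript of the opposite strand lay within the gene in 13 of the 25 pairs at 0 (52%) and in 126 of the 351 pairs with a level (35.9%). Levels of the members rested on an estimated 21.4 to 27375 fragments per library, with a median of 1129.

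Changes against control were mostly small and mostly downwards. A member was called past the fold when log2((FPKM + 1) treated / (FPKM + 1) control) was over 1.5 in size, the fold threshold of the study's methods. In HepG2 after NaB, 1 member was past it as higher and 2 as lower, against 4.72% and 5.08% of all 13442 measured genes. After Cur/Pip 3 were higher and 5 lower, against 8.98% and 10.2% of all genes. After the combination 1 was higher and 3 lower, against 8.01% and 11.5%. In Hep3B-labelled cells, 1 was higher and 5 lower after NaB, against 4.99% and 7.04% of 13355 measured genes. After Cur/Pip 2 were higher and 0 lower, against 6.48% and 3.97%. After the combination 2 were higher and 5 lower, against 6.8% and 8.2%. Of these 30 calls 18 rest on a library in which the gene was listed at 0.

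Among members listed in both libraries compared, 12 calls in 11 members were left, 11 of them lower. In HepG2 these were 0 of 41 members after NaB (1.61% of all genes so listed were higher and 1.8% lower), 4 of 41 after Cur/Pip, all lower (9.76%, against 7.26% of all genes lower and 5.16% higher), and 1 higher and 2 lower of 42 after the combination (2.38% and 4.76%, against 4.67% and 7.3%). In the Hep3B-labelled libraries they were 2 of 42 after NaB, both lower (4.76%, against 4.12% lower and 1.69% higher), 0 of 45 after Cur/Pip (against 1.82% higher and 1.45% lower), and 3 of 43 after the combination, all lower (6.98%, against 4.53% lower and 2.42% higher). These shares are close to those of all genes. By depth 6 of the 12 calls, in 5 members, were also past the threshold, namely RAD54L, DDB2 and UNG in HepG2 after Cur/Pip, and DDB2, XPC and LIG1 in the Hep3B-labelled libraries after the combination. By depth alone, FANCD2, FANCG and LIG1 in HepG2 after Cur/Pip, and XRCC3 and FANCI after the combination, were also lower past the threshold, which made 6 of 42 members after Cur/Pip (14.3%, against 7.37% of all genes by depth) and 2 of 42 after the combination (against 7.33%). By FPKM FANCG counted as higher after Cur/Pip, with its control listed at 0. Its control depth of 16.3 lay in the transcript that runs on from a neighbouring gene. In the Hep3B-labelled libraries after the combination, 3 of 43 were lower by depth, against 4.67% of all genes. With 1 library per condition no difference within a line has a replicate check or a p-value.

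**Figure D1:**
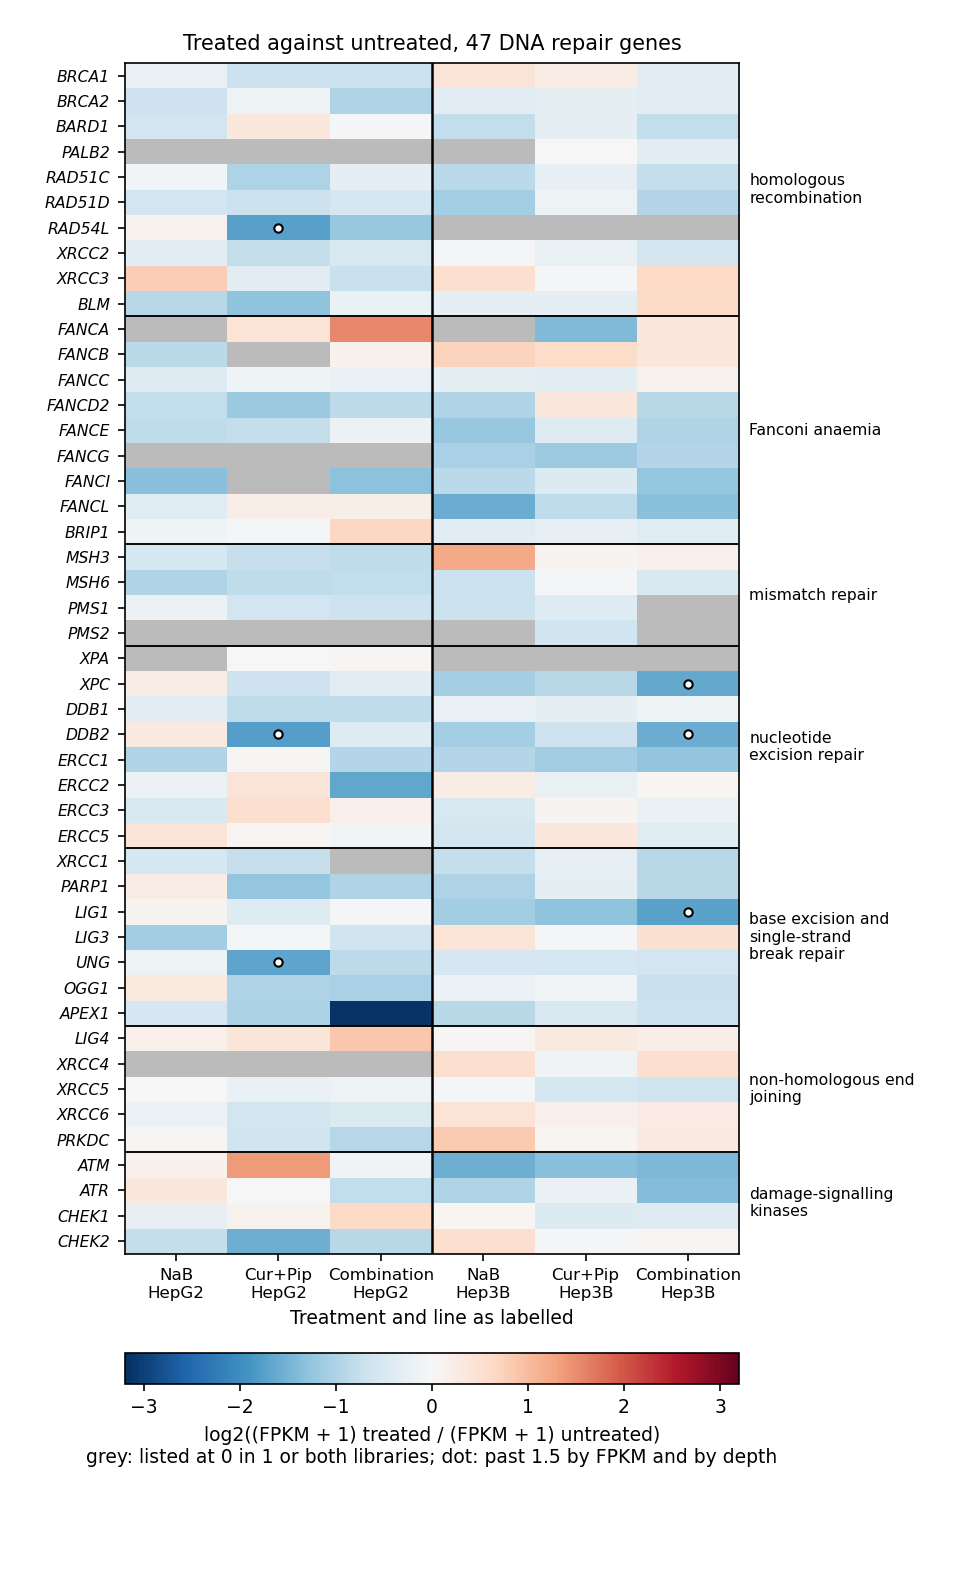
Log2 fold change against control (colour) of the 47 members (rows, by repair route) for 3 treatments in HepG2 and in the Hep3B-labelled libraries (columns). Grey cells are members listed at 0 in 1 or both libraries, and the 6 dots mark calls past 1.5 by FPKM and by depth; blue cells outnumber red ones in every column.

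The members lay below all genes in the middle of the distribution. Over members listed in both libraries, the median log2 fold change in HepG2 was −0.26 after NaB, −0.62 after Cur/Pip and −0.54 after the combination, and that of all genes was 0.01, −0.02 and −0.02. In the line labelled Hep3B it was −0.53, −0.26 and −0.52, and that of all genes was −0.16, −0.02 and −0.09. By depth, over the members it lists in both libraries, the medians were −0.28, −0.80 and −0.49 in HepG2 and −0.40, −0.16 and −0.48 in the Hep3B-labelled libraries. Those of all genes by depth were 0.03, −0.10 and −0.06 in HepG2 and −0.17, −0.01 and −0.13 in the Hep3B-labelled libraries. Members below 0 made up 68.3, 70.7 and 81% in HepG2, against 48.9, 51.1 and 51.1% of all genes, and 71.4, 77.8 and 69.8% in the Hep3B-labelled libraries, against 60.2, 51.6 and 55.7%. With median-of-ratios scaling the median of all genes after NaB in the Hep3B-labelled libraries moved to −0.01 and that of the members to −0.36. Of the 254 changes of members listed in both libraries, 36 had a different sign by depth. The 3 comparisons of a line share their control library. In bulk RNA, fewer cells that make a transcript and less of it per cell cannot be told apart.

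**Figure D2:**
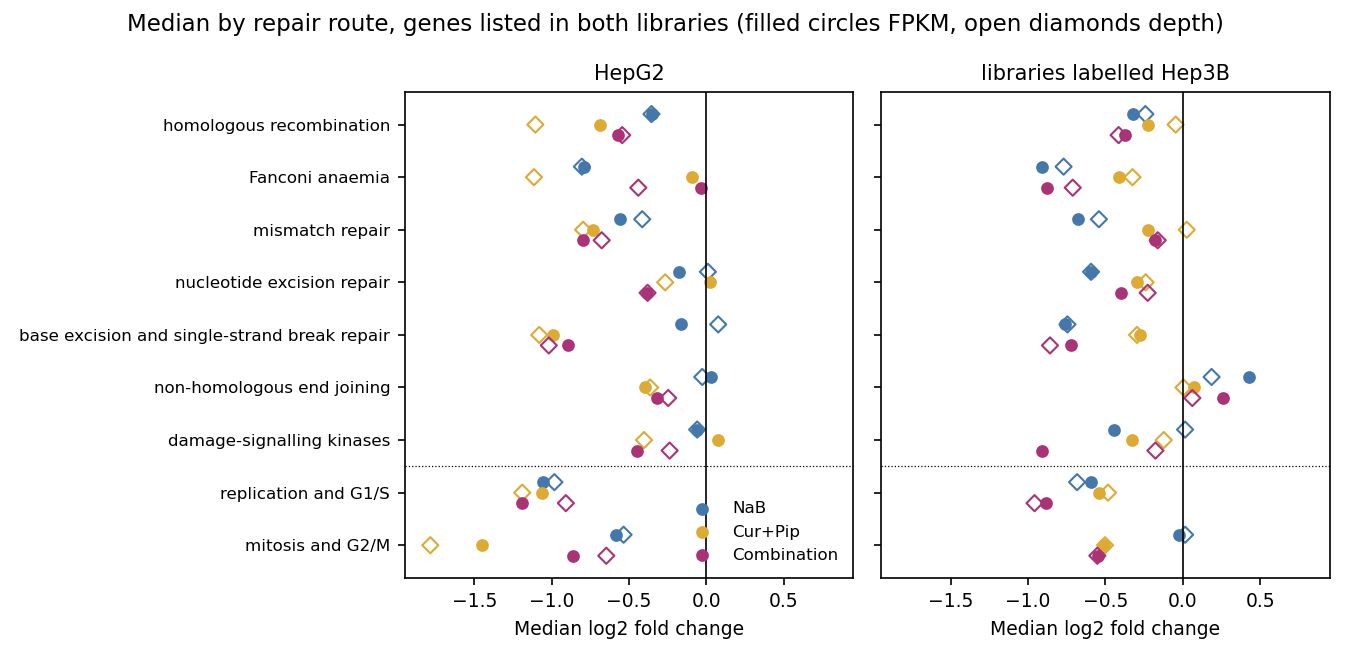
Median log2 fold change against control (x axis) of each repair route and of 2 other gene lists (rows) over genes that each measure lists in both libraries, in HepG2 (left) and in the Hep3B-labelled libraries (right). Filled circles are FPKM, open diamonds depth; base excision repair lies lowest of the routes by FPKM in HepG2 after Cur/Pip (−0.99), and non-homologous end joining lies above 0 in the Hep3B-labelled libraries, nearer to 0 by depth.

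In homologous recombination, RAD54L was the 1 member with a call in which both libraries listed it. It encodes a motor protein that acts on DNA during strand exchange, and its gene is on chromosome 1 (GRCh38), from 46246461 to 46278480. Its level in HepG2 was 8.65 FPKM after NaB, 1.68 after Cur/Pip and 2.86 after the combination, against 7.94 in the control. The Cufflinks interval after Cur/Pip, 1.33 to 2.04, and that after the combination, 2.39 to 3.32, lay apart from that of the control, 7.24 to 8.63. The log2 fold change was −1.74 after Cur/Pip (−1.73 by depth) and −1.21 after the combination. In cells labelled Hep3B it stood at 15.7, 8.58 and 12.6 FPKM after NaB, Cur/Pip and the combination, while no transcript was assembled at its locus in the control, so that no fold is given.

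BRCA1, which encodes the tumour suppressor that promotes resection of broken ends, was at 3.41, 2.24 and 2.21 FPKM in treated HepG2 cells, against 4.21 in the control. For cells with the Hep3B label, it was at 11.9, 10.54 and 6.49 FPKM, against 8.71. Its log2 fold changes in HepG2 were −0.24, −0.69 and −0.70 by FPKM and −0.64, −1.11 and −0.72 by depth. After NaB in the Hep3B-labelled libraries the 2 measures differed in sign, with 0.41 by FPKM and −0.67 by depth. Of the 9 members of the route listed in both HepG2 libraries, 7, 8 and 9 were below 0 after NaB, Cur/Pip and the combination, with medians of −0.35, −0.69 and −0.57. In Hep3B-labelled cells 6 of 8, 7 of 9 and 7 of 9 were below 0, with medians of −0.32, −0.23 and −0.37. Over the same members the medians by depth were −0.36, −1.11 and −0.54 in HepG2 and −0.24, −0.05 and −0.41 in the Hep3B-labelled libraries. RAD51C had the highest level of the route in each library, 11.8 to 23.2 FPKM in treated HepG2 cells against 24.5 in the control. XRCC3, which acts in strand exchange, was at 12.5, 5.06 and 3.77 FPKM in treated HepG2 cells, against 6.77, and its change after the combination by depth was −1.82, with 31.5% of its annotated exons covered. The paralogues RAD51D and XRCC2, the BRCA1 partner BARD1, the loader BRCA2 and the helicase BLM were low throughout, between 0.472 and 2.59 FPKM in treated HepG2 cells against 1.74 to 3.40 in the control, and between 1.26 and 10.1 in treated Hep3B-labelled libraries against 1.87 to 7.32 in the control. PALB2, the partner that joins BRCA1 to BRCA2, was listed at 0 in 4 libraries, 3 of them HepG2.

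The Fanconi anaemia pathway unhooks crosslinks between DNA strands. Its core complex (FANCA, FANCB, FANCC, FANCE, FANCG and the ubiquitin ligase FANCL) attaches ubiquitin to the pair of FANCD2 and FANCI. FANCD2 was at 3.35, 2.29 and 3.18 FPKM in HepG2 after NaB, Cur/Pip and the combination, against 6.52 in the control. The 3 treated intervals, between 1.87 and 3.68, lay below that of the control, 6.06 to 6.98. The log2 fold changes were −0.79, −1.19 and −0.85, and by depth −0.95, −1.65 and −0.97. In the Hep3B-labelled libraries FANCD2 was at 7.05, 19.0 and 7.55 FPKM, against 14.7, and only the library after Cur/Pip was above the control by FPKM (0.35), where depth gave −0.70.

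In HepG2, FANCI had 3.72 FPKM after NaB and 3.79 after the combination, against 10.8 in the control, and was listed at 0 after Cur/Pip. The log2 fold changes were −1.33 and −1.31. After the combination the transcripts covered 20.1% of the annotated exons, and by depth the change was −2.80. In the line labelled Hep3B it was at 20.1, 27.3 and 15.2 FPKM, against 37.4, with log2 fold changes of −0.86, −0.44 and −1.25, so that each level given after treatment was below its control in both lines.

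FANCL was at 5.61, 9.06 and 8.91 FPKM in treated HepG2 cells, against 7.62 in the control, with changes of −0.38, 0.22 and 0.20 on the log2 scale (−1.05, 0.13 and −0.22 by depth). In cells labelled Hep3B it was at 9.85, 17.3 and 11.9 FPKM, against 31.4. The change after NaB there, −1.58, was past the threshold and by depth it was −1.19. FANCA gave the only call upwards among members listed in both libraries. It was at 9.22 FPKM after Cur/Pip and at 20.7 after the combination, against 6.52 in the HepG2 control (1.53 after the combination), and was listed at 0 after NaB. The single transcript behind the 20.7 FPKM covered 17% of the annotated exons, and by depth FANCA was at 3.52 against 6.52, a change of −0.74, so that the direction turned with the measure. For cells with the Hep3B label, it was listed at 0 after NaB, and was at 8.12 FPKM after Cur/Pip and 29.7 after the combination, against 23.2. Of the rest, FANCG was listed in only 1 HepG2 library and was at 14.8, 13.4 and 15.8 FPKM in treated Hep3B-labelled libraries, against 31.3. FANCC ranged over 3.45 to 4.32 FPKM in treated HepG2 cells, against 4.88, and the helicase BRIP1 over 2.49 to 5.03, against 2.84. FANCB was at 0.455 to 1.89 FPKM in the HepG2 libraries that listed it and at 1.84 to 3.67 FPKM in the Hep3B-labelled libraries. Over the route the medians were −0.79, −0.09 and −0.04 in HepG2 by FPKM and, over the same members, −0.81, −0.94 and −0.44 by depth. In Hep3B-labelled cells they were −0.91, −0.41 and −0.88 by FPKM and −0.77, −0.32 and −0.71 by depth.

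Of the mismatch repair genes, MSH6, a subunit of the complex that recognises mispaired bases, was at 10.96, 12.3 and 12.5 FPKM in HepG2 after NaB, Cur/Pip and the combination, against 22.4 in the control. The 3 treated values lay close together and their intervals, between 10.2 and 13.3, were below the interval of the control, 21.2 to 23.6. The log2 fold changes were −0.97, −0.81 and −0.80, and depth gave −0.98, −0.80 and −0.80. In the Hep3B-labelled libraries MSH6 was at 27.6, 43.4 and 30.8 FPKM, against 44.7, with changes of −0.68, −0.04 and −0.52. The interval after Cur/Pip, 41.3 to 45.5, overlapped that of the control, 42.5 to 46.8. MSH3, which serves in the complex for larger loops, was below its control in each treated HepG2 library (−0.56, −0.73 and −0.82) and above it in the Hep3B-labelled libraries (1.204, 0.10 and 0.16, and by depth 0.40, 0.09 and 0.15). PMS2, a subunit of the nicking enzyme, shares near-identical pseudogenes and was listed at 0 in 5 libraries. PMS1 was listed at 0 in the Hep3B-labelled library after the combination.

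Nucleotide excision repair held 3 of the 6 calls that both measures gave. DDB2, the subunit that finds ultraviolet lesions together with DDB1, lies on chromosome 11 from 47214465 to 47239217. It was at 40.8, 9.21 and 25.1 FPKM in HepG2 after NaB, Cur/Pip and the combination, against 33.5 in the control. In the line labelled Hep3B it was at 11.1, 15.3 and 7.505 FPKM, against 24.6. After NaB HepG2 was above its control and the Hep3B-labelled libraries were below theirs. The log2 fold changes were 0.28, −1.76 and −0.40 in HepG2 and −1.09, −0.66 and −1.59 in the Hep3B-labelled libraries, and by depth 0.22, −2.01 and −0.39, and −1.33, −0.58 and −1.52. The intervals of the 2 called values were 8.32 to 10.1, against 31.4 to 35.7 in the HepG2 control, and 6.80 to 8.21, against 22.9 to 26.4 in the Hep3B-labelled control.

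XPC, which finds distorted DNA in the whole genome, was at 4.68 FPKM in the Hep3B-labelled library after the combination, at 7.38 after NaB and at 8.40 after Cur/Pip, against 16.5 in the control. The log2 fold changes were −1.07 after NaB, −0.90 after Cur/Pip and −1.63 after the combination, and depth gave −1.08, −0.90 and −1.63. In HepG2 XPC was at 11.8, 5.94 and 7.499 FPKM, against 9.98, with changes of 0.23, −0.66 and −0.37. XPC and DDB2 thus had the same order of the 4 HepG2 libraries, NaB highest, then control, combination, and Cur/Pip lowest. ERCC2, a helicase of the TFIIH complex, was at 10.8, 16.6 and 3.21 FPKM in treated HepG2 cells, against 12.3 in the control. The change after the combination was −1.65 by FPKM and −1.498, just inside the threshold, by depth (3.10 against 10.6). In cells labelled Hep3B ERCC2 was at 16.9, 11.8 and 14.8 FPKM, against 14.1. DDB1, a subunit of a ubiquitin ligase with many substrates, had the highest level of the route, 62.7 to 87.3 FPKM in treated HepG2 cells against 112 in the control, and 73.4 to 80.4 against 90.2 in the Hep3B-labelled libraries. The other helicase ERCC3, the nuclease subunit ERCC1, the nuclease ERCC5 and the verifier XPA had no call in which both libraries listed them. ERCC3 ranged over 19.1 to 39.9 FPKM in treated HepG2 cells, against 27.1, and ERCC5 over 7.41 to 11.1, against 7.99. ERCC1 was at 17.2, 35.2 and 17.4 FPKM in treated HepG2 cells, against 34.3, and at 23.2, 20.4 and 18.4 FPKM in the Hep3B-labelled libraries, against 45.5. By depth it was at 5.55, 9.15 and 7.8, against 8.42, in HepG2, and at 6.76, 5.95 and 5.38, against 11.5, in the Hep3B-labelled libraries. Of its annotated exons 25.2% were covered in the HepG2 control and 100% after the combination.

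**Figure D3:**
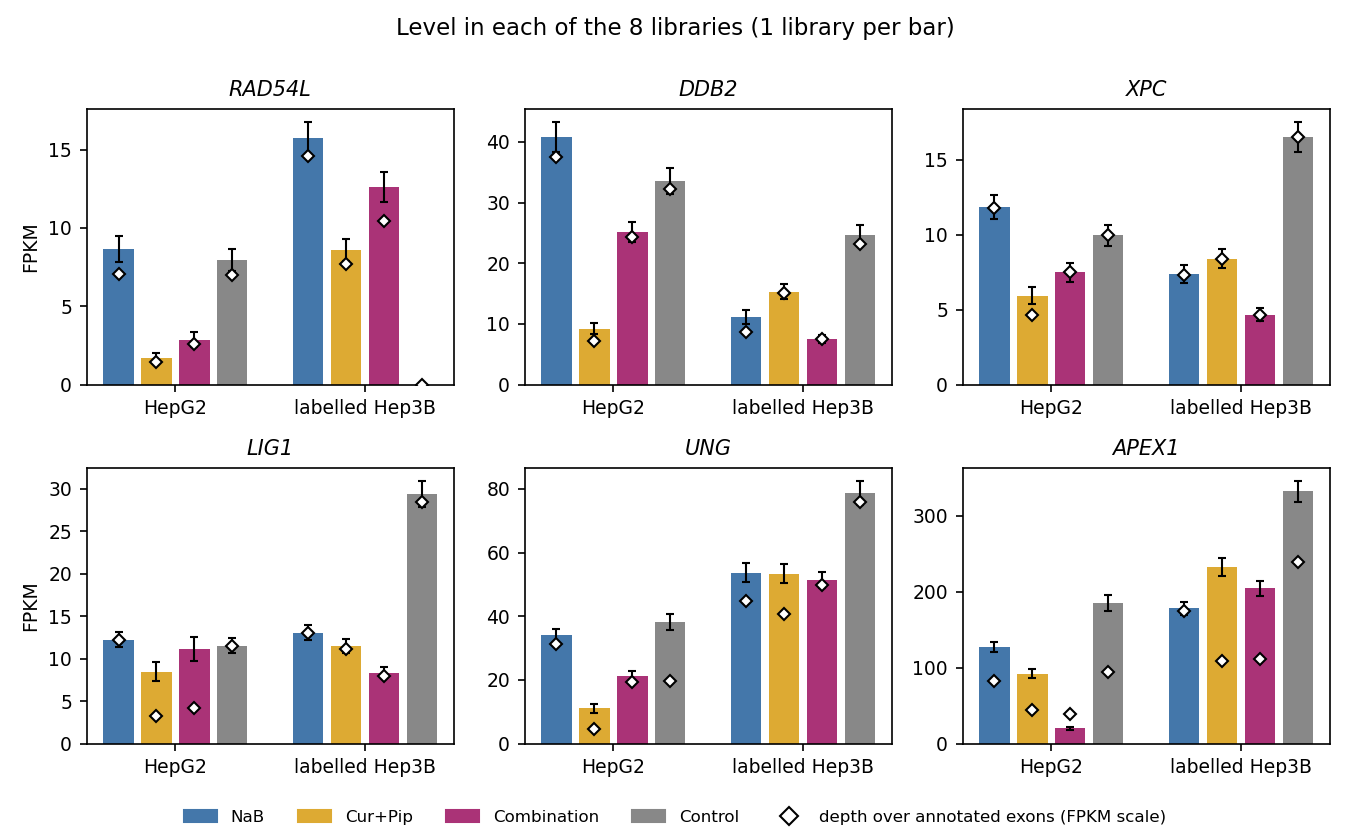
FPKM (y axis) of 6 members in each of the 8 libraries (bars, 1 library each) with Cufflinks intervals (error bars) and depth over annotated exons (diamonds). DDB2 is lowest after Cur/Pip in HepG2 (9.21) and after the combination in the Hep3B-labelled libraries (7.505); bar and diamond part most for APEX1.

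In base excision and single-strand break repair, UNG, the glycosylase that removes uracil from DNA, was at 34.0, 11.1 and 21.1 FPKM in HepG2 after NaB, Cur/Pip and the combination, against 38.2 in the control. Its gene lies on chromosome 12 from 109097597 to 109126725. The interval after Cur/Pip was 9.76 to 12.5, against 35.6 to 40.9 in the control. The log2 fold change was −1.69, and −1.87 by depth, with 50.8% of the annotated exons covered after Cur/Pip and 58.3% in the control. For cells with the Hep3B label, UNG was at 53.7, 53.4 and 51.4 FPKM, against 78.8, with changes of −0.55, −0.55 and −0.61. The intervals of these 3 treated libraries overlapped each other and lay below that of the control.

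LIG1, the ligase that joins Okazaki fragments in replication and also seals excision patches, lies on chromosome 19 from 48115445 to 48170603. In Hep3B-labelled cells it was at 13.1 FPKM after NaB, 11.5 after Cur/Pip and 8.34 after the combination, against 29.4 in the control. The log2 fold changes were −1.11, −1.28 and −1.70, and depth gave −1.07, −1.28 and −1.72. In HepG2 LIG1 was at 12.3, 8.49 and 11.1 FPKM, against 11.6 in the control. There the measures differed: the FPKM changes after Cur/Pip and after the combination were −0.40 and −0.05, and by depth they were −1.56 and −1.27, with 7 and 9 assembled transcripts in those libraries against 2 in the control.

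APEX1, the main nuclease at sites that have lost a base, had the largest change by FPKM among members listed in both libraries, and it was inside the threshold by depth. It was at 127, 91.9 and 20.3 FPKM in treated HepG2 cells, against 185 in the control, which gave −0.54, −1.001 and −3.13. By depth it was at 82.6, 43.8 and 38.4, against 93.9, which gave −0.18, −1.08 and −1.27. After the combination a further transcript from the same start ran on past the end of the gene, was not assigned to APEX1 and entered its depth only. In the Hep3B-labelled libraries APEX1 was at 178, 233 and 204 FPKM, against 332. PARP1, the break sensor that builds poly(ADP-ribose), was at 68.6, 24.2 and 29.2 FPKM in treated HepG2 cells, against 57.9, with changes of 0.24, −1.23 and −0.96 (−0.36, −1.34 and −1.12 by depth). In the line labelled Hep3B it was at 61.6, 102 and 66.6 FPKM, against 123 (−0.99, −0.28 and −0.88). XRCC1, the scaffold of single-strand break repair, was at 6.57 FPKM after NaB and 5.67 after Cur/Pip, against 10.1 in the HepG2 control, was listed at 0 after the combination, and ranged over 10.3 to 16.5 FPKM in treated Hep3B-labelled libraries, against 19.9. OGG1, which removes oxidised guanine, was at 22.8, 8.65 and 8.31 FPKM in treated HepG2 cells, against 18.2. The ligase LIG3 ranged over 4.36 to 10.1 FPKM in treated HepG2 cells, against 10.6, and over 9.47 to 14.0 in the Hep3B-labelled libraries, against 9.69. Its direction turned with the measure: after NaB in HepG2 it was −1.11 by FPKM and 0.14 by depth, and in the Hep3B-labelled libraries it was 0.45, −0.03 and 0.49 by FPKM and −0.73, −0.19 and −0.86 by depth. By FPKM all 7 genes of the route were below 0 in HepG2 after Cur/Pip, as were all 7 in the Hep3B-labelled libraries after Cur/Pip, with medians of −0.99 and −0.28. By depth the medians were −1.08 and −0.30, and LIG3 was above 0 in HepG2 (0.12). After NaB 4 of 7 were below 0 by FPKM in HepG2 and 6 of 7 in the Hep3B-labelled libraries. Those medians were −0.16 and −0.76, and 0.08 and −0.75 by depth. After the combination 6 of 6 and 6 of 7 were below 0 by FPKM. Their medians were −0.89 and −0.72, and −1.02 and −0.86 by depth.

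**Figure D4:**
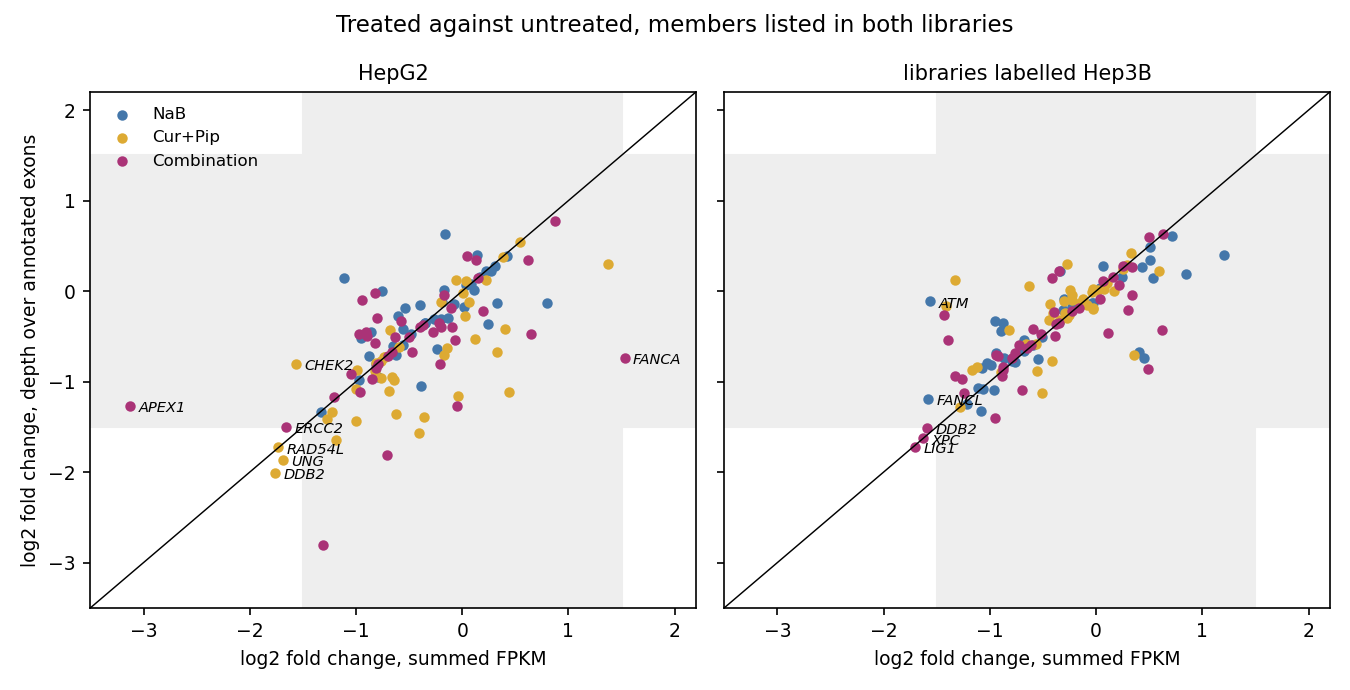
Log2 fold change against control by depth over annotated exons (y axis) against that by summed FPKM (x axis), 1 point per member and treatment for members listed in both libraries. The line marks equal values and the grey bands lie within the threshold of 1.5; names mark the 12 calls by FPKM, of which APEX1 (−3.13 by FPKM, −1.27 by depth) and FANCA (1.53 and −0.74) lie farthest from the line.

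Non-homologous end joining had no call with both libraries listed. XRCC5 and XRCC6 encode the Ku subunits that cap broken ends, and XRCC6 had the highest FPKM of the 47 members in 7 of the 8 libraries. XRCC6 was at 231, 175 and 190 FPKM in treated HepG2 cells, against 265 in the control, and at 354, 295 and 314 FPKM in the Hep3B-labelled libraries, against 263. All 3 treated HepG2 libraries were thus below their control (−0.19, −0.59 and −0.47) and all 3 treated Hep3B-labelled libraries above theirs (0.43, 0.17 and 0.26), which by depth were 0.27, 0.00 and 0.28. XRCC5 was at 119, 101 and 104 FPKM, against 117, in HepG2 and at 165, 114 and 107 FPKM, against 169, in the Hep3B-labelled libraries. Its largest change was −0.65. PRKDC, the kinase that Ku recruits, ranged over 12.97 to 25.9 FPKM in treated HepG2 cells, against 25.2, and over 31.5 to 54.6 in the Hep3B-labelled libraries, against 29.96, where its changes were 0.84, 0.07 and 0.30 by FPKM and 0.19, 0.02 and −0.21 by depth. LIG4, which seals the ends, was above its control in all 6 comparisons by 0.04 to 0.87. The medians of the route were 0.03, −0.40 and −0.32 in HepG2 and 0.43, 0.07 and 0.26 in the Hep3B-labelled libraries. By depth they were nearer to 0, at −0.03, −0.36 and −0.25 in HepG2 and 0.19, 0.0047 and 0.06 in the Hep3B-labelled libraries. XRCC4, the partner of LIG4, was listed at 0 in 3 HepG2 libraries.

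Of the damage-signalling kinases, ATM, which responds to double-strand breaks, was at 5.42, 14.1 and 4.41 FPKM in treated HepG2 cells, against 4.82 in the control. After Cur/Pip its change was 1.37 by FPKM and 0.30 by depth, with 9 assembled transcripts against 4 in the HepG2 control. In cells labelled Hep3B it was at 3.74, 4.58 and 4.19 FPKM, against 12.98, with changes of −1.56, −1.33 and −1.43. By depth those libraries were at 3.05, 3.78 and 2.64, against 3.38, and the changes were −0.11, 0.13 and −0.27. The control there held 6 assembled transcripts of ATM. CHEK2, a kinase downstream of ATM with several pseudogenes, was at 6.02, 2.99 and 5.36 FPKM in treated HepG2 cells, against 10.8. The change after Cur/Pip was −1.57 by FPKM and −0.80 by depth. For cells with the Hep3B label, CHEK2 was at 17.5, 11.6 and 12.2 FPKM, against 11.8. CHEK1, the kinase downstream of ATR at stalled forks, was at 5.65, 7.68 and 11.3 FPKM in treated HepG2 cells, against 6.98, and at 25.1, 17.4 and 17.7 FPKM in the Hep3B-labelled libraries, against 23.9. Its changes lay between −0.44 and 0.62 by FPKM and between −0.53 and 0.34 by depth. ATR, which responds to stalled replication, had none past the threshold. Its lowest changes came after the combination, with −0.80 in HepG2 and −1.40 in the Hep3B-labelled library by FPKM and −0.29 and −0.55 by depth.

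Other genes of the cell cycle and of repair were described for comparison, here by FPKM only. Over genes listed in both libraries, replication and G1/S genes had medians of −1.06, −1.07 and −1.19 in HepG2 after NaB, Cur/Pip and the combination, and 7 of 32, 12 of 32 and 6 of 33 were past the threshold downwards and none upwards. In Hep3B-labelled cells the medians were −0.60, −0.54 and −0.88, with 2 of 35, 1 of 34 and 4 of 34 downwards and none upwards. Mitosis and G2/M genes had medians of −0.58, −1.45 and −0.86 in HepG2 and −0.02, −0.51 and −0.55 in the Hep3B-labelled libraries. Of these, 3 of 33, 16 of 33 and 4 of 32 were past the threshold downwards in HepG2. In the Hep3B-labelled libraries 0, 0 and 1 of 34 were, and none was past it upwards in either line. A list of 77 further repair genes, which holds none of the 47, had medians of 0.09, −0.17 and −0.08 in HepG2 and −0.14, −0.08 and −0.18 in the Hep3B-labelled libraries. There 0 of 68, 4 of 64 and 3 of 63 were past the threshold downwards in HepG2, and 2, 2 and 4 of 68 in the Hep3B-labelled libraries. Upwards there were 0, 1 and 2 in HepG2, and 2, 1 and 2 in the Hep3B-labelled libraries. The medians of these further repair genes thus lay nearer to 0 than those of the 47 members in each of the 6 comparisons, a difference that was not tested.

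The untreated lines were compared by the same rule. Of 47 members 2 were past the threshold as higher and 8 as lower in the HepG2 control against the Hep3B-labelled control, beside 11.5% and 14.2% of all genes. Of the 41 listed in both, 4 were lower and none higher (9.76%, against 9.76% of all genes lower and 7.16% higher), namely FANCA, FANCI, FANCL and CHEK1. FANCI (10.8 FPKM in HepG2, against 37.4, −1.70) and FANCL (7.62 against 31.4, −1.91) were also past it by depth, at −1.58 and −1.54. By depth 3 of 42 members were lower, against 9.11% of all genes, and the third was UNG, at −1.89 (−1.03 by FPKM). The median of the members was −0.84 and that of all genes −0.16. The Fanconi anaemia genes had a median of −1.18 and homologous recombination genes one of −0.92, while nucleotide excision repair genes had one of −0.19. The libraries differ in line and in culture together, which cannot be told apart.

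The combination was also set against each of its parts. Of members listed in both libraries, 2 of 40 were past the threshold as lower in HepG2 against NaB alone and 2 of 40 against Cur/Pip alone, beside 6.15% and 2.63% of all genes, and none was higher, beside 4.01% and 1.98%. In the Hep3B-labelled libraries these counts were 0 of 42 lower or higher against NaB alone, beside 1.47% and 2.02%, and 1 of 45, higher, against Cur/Pip alone, beside 1.43% higher and 2.32% lower. The calls in HepG2 were XRCC3 and APEX1 against NaB and ERCC2 and APEX1 against Cur/Pip, and the call in the Hep3B-labelled libraries was FANCA. XRCC3 after the combination against NaB, at 3.77 against 12.5 FPKM (−1.501, and −1.68 by depth), was the 1 of these also past the threshold by depth. By depth the calls were otherwise different. Against NaB 2 of 40 were lower, XRCC3 and ERCC2 (−1.507 by depth, −1.48 by FPKM), beside 6.82% of all genes by depth. Against Cur/Pip none was lower and 2 of 40 were higher, DDB2 (1.62 by depth, 1.36 by FPKM) and UNG (1.84 and 0.87), beside 2.12% of all genes by depth. XRCC3 was named after its values were seen.

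Changes shared by both lines were tested with limma on log2(FPKM + 1) over the 8 libraries, with the line as a term and 3 residual degrees of freedom. After Benjamini-Hochberg adjustment over 15461 genes, no member was past 0.05 after NaB, after Cur/Pip, or after the combination, beside 0, 6 and 19 of all genes (0%, 0.0388% and 0.123%). At an unadjusted p under 0.05 there were 2, 0 and 5 members, all with estimates below 0, beside 4.72%, 5.93% and 10.7% of all genes. By depth there were 6, 3 and 6 of 47 members, beside 889, 1147 and 2107 of 16338 genes. The members by FPKM after NaB were FANCA, listed at 0 in both NaB libraries, and FANCE. Those by FPKM after the combination were PMS1, ERCC1, XRCC1, APEX1 and ATR, of which PMS1 and XRCC1 each rest on a combination library listed at 0. By depth PMS1, ERCC1 and ATR were not under 0.05 after the combination. After NaB, FANCE, of the Fanconi anaemia core complex, had a limma estimate of −1.01 ± 0.38 (SE, adjusted p = 0.897), and was below its control in both lines by FPKM and by depth. The estimate was below 0 for 36, 35 and 38 of the 47 members, beside 57.5, 50.9 and 54.2% of all genes. After Cur/Pip the adjusted p in this limma fit was 0.875 for RAD54L and 0.686 for DDB2 and for UNG, and after the combination it was 0.551 for DDB2, 0.511 for XPC and 0.534 for LIG1. The estimate for RAD54L after Cur/Pip was 0.76, above 0, with the Hep3B-labelled control listed at 0. The libraries of a treatment differ in line, and after NaB and the combination in NaB dose, so that the spread in this fit is that between lines.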

How the data were processed

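Total RNA of HepG2 cells and cells labelled Hep3B was sequenced as strand-marked paired-end libraries of 2 × 150 bases. RNA was isolated in triplicate, and whether a library pools these isolations is not stated. Per the labels and the study's methods, the authors aligned reads to GRCh38 with STAR and assembled each library on its own with Cufflinks. The submitters' notes also name FastQC and Cuffdiff; tool versions: not given in the sources used here. Deposited transcript tables hold an FPKM, its 95% interval and a coverage per transcript, among other attributes, and no read counts. Fragments were therefore estimated from coverage.

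Each transcript was assigned to the GENCODE 44 gene holding at least 50% of its exonic bases on its strand (bedtools 2.31.1), and FPKM were summed per gene, with intervals combined in quadrature. A gene counted as measured in a line when at least 1 of its 4 libraries reached an FPKM of 1, with a pseudocount of 1 on the log2 scale, which understates the change of low genes. A gene was called past a log2 fold change of 1.5 (2.83-fold). The fit over both lines used limma 3.58.1 in R 4.3.3, with Benjamini-Hochberg adjustment. The fold and limma steps were tested on simulated gene levels. Those data held no missing or broken assembly, so they do not check calls that rest on it. Python 3.11.15, pandas 2.3.3, numpy 2.4.6 and matplotlib 3.10.9 were used otherwise.

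The members, gene lists and tests were chosen with earlier results of these data known. Values in all 8 libraries are given for members called with transcripts in both libraries and separate intervals, and for 13 members that anchor a route. Alternatives were the pseudocount, the filter, scaling, the gene level, the call rule, the variance model, the factors of the fit and each library left out. Authors' comparison tables were not used here.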

Additional observations from a re-analysis of the deposited data

How the results depend on the processing

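Counts of members past the threshold were 3, 8 and 4 in HepG2 (NaB, Cur/Pip, combination) and 6, 2 and 7 in the Hep3B-labelled libraries. Over genes listed in both libraries the counts were 0, 4 and 3, and 2, 0 and 3. With a pseudocount of 5 they were 1, 1 and 2, and 3, 1 and 3, and with 0.1 HepG2 after NaB had 5. At a log2 fold change of 1 they were 5, 14 and 7, and 13, 7 and 12. With the largest transcript per gene HepG2 after the combination had 7. By depth over genes that FPKM lists in both libraries (which leaves out FANCG after Cur/Pip in HepG2), an alternative chosen after seeing the data, they were 0, 5 and 2, and 0, 0 and 3. Shares of all genes are given above for the main rule and for genes listed in both libraries. None are given for the other settings here, so a larger count there is not a result about the members. The cause of these shifts was not tested. By depth the change of FANCA in HepG2 after the combination was −0.74 in place of 1.53.

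The limma fit gave 0, 6 and 19 genes of 15461 after NaB, Cur/Pip and the combination. It gave 19, 32 and 60 with a pseudocount of 0.1, and 2 after Cur/Pip and 4 after the combination with a pseudocount of 5. With a trended variance there were 2 after Cur/Pip. By depth there were 1 after NaB and 2 after Cur/Pip, and with NaB and Cur with Pip as additive factors 2 and 2. With each of the 8 libraries left out in turn the count was 0 to 0 for each treatment, in fits of fewer samples. Members past an adjusted p of 0.05 numbered 0 in each of these fits. For single members, 1292 values kept their label across the alternatives, 30 were past the threshold that had not been, and 28 no longer were. A further 2, both FANCA above, were called and changed sign. The alternatives include a threshold lowered to a log2 fold change of 1. Values between it and the main threshold pass there unchanged, so the 30 need not all be past the main threshold. Values inside the threshold were not counted as turned, although by depth 36 of 254 changes, FANCA included, had a different sign.

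Within a line no paired analysis was possible because each condition has 1 library per line and the labels carry no replicate numbers. The limma fit, with the line as a term, matched libraries by line only. No depth but the coverage of assembled transcripts was at hand, and the lowest level of a member rests on an estimated 21.4 fragments. The intervals are those of the transcripts as assembled, and they cover neither differences in assembly nor the spread between replicates. FANCA in HepG2 after the combination had an interval of 19.1 to 22.3 FPKM and a depth of 3.52. Separate intervals are therefore no check on the assembly.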
